A study of Mus musculus with 4 samples.

Results

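The 33 genes described here encode the granule proteins of neutrophils and their precursors, together with receptors, inhibitors and calcium-binding proteins of maturing neutrophils. They were chosen as a list of named granulocyte genes with earlier results of these data known. Shares of members set beside those of all genes are therefore descriptions and not independent support. The genes were matched by RefSeq accession and gene symbol, and all 33 were found among the 24116 symbols or unnamed accessions in the expression tables. By the stage at which their products are made, 7 belong to the primary granule and promyelocyte stage, 11 to the secondary or specific granule stage and 10 to a later stage with surface receptors and inhibitors. The other members are 3 cytosolic S100 proteins and the 2 lysozymes.

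RNA was sequenced from bone marrow cells of C57BL/6 mice, either wild type (Batf2+/+, WT) or deficient for the transcription factor Batf2 (Batf2-/-, KO). All 4 cultures were grown for 6 days with 10 ng/ml GM-CSF, and the adherent cells were taken as bone marrow-derived macrophages. Per the labels, all groups were given 10 ng/ml interferon-gamma for 4 h and then 100 ng/ml LPS, a bacterial cell wall component, for 0 or 3 h. Each of the 4 groups, WT and KO before LPS (0 h) and WT and KO after it (3 h), was 1 library, so no difference has a replicate check, and none could be tested against the spread between cultures.

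Neutrophils mature in the bone marrow through stages that fill different granules. Promyelocytes make the primary granule proteins, such as myeloperoxidase and the serine proteases. Myelocytes and metamyelocytes, under the transcription factor C/EBP-epsilon, make the secondary granule proteins, such as lactoferrin and cathelicidin, and the receptors that guide migration come later. GM-CSF supports granulocytes as well as macrophages and dendritic cells, and bone marrow cultures grown with it can hold all of these.

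The libraries were compared with their labels first. Batf2 stood at 2.625 FPKM (fragments scaled by transcript length and by the mapped reads of the library) in WT at 0 h, 234 in WT at 3 h, 0.259 in KO at 0 h and 10.1 in KO at 3 h. The macrophage genes Csf1r (147 to 187 FPKM) and Cd68 (285 to 453) were high in all 4 libraries. The class II genes shared with dendritic cells were also high, with Cd74 between 3810 and 8213. The label of interferon-gamma treatment at 0 h was not borne out by its target Cxcl9, which stood at 0.624 and 0.124 FPKM in WT and KO at 0 h and at 1248.5 and 1058 at 3 h. The difference between 0 h and 3 h therefore cannot be assigned to LPS alone, and "LPS response" below means 3 h minus 0 h as labelled. Estimated depths ran from 20.3 to 30.7 in units of 1000000 reads. In such bulk libraries a lower number of granulocytes and less RNA per granulocyte cannot be told apart.

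Differences are given as log2(FPKM + 1), on which low genes appear to change less than they do, and folds as ratios of FPKM. Values in brackets after a fold are the interval that follows from the 95% limits deposited for each FPKM, which cover counting error within a library only. A gene passed the 2-fold size rule when its difference was at least 1 in size, its FPKM reached 1 in either or both libraries, its entries had the status OK in both, and the deposited intervals did not overlap. The words rose and fell are kept for genes that passed.

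Promoter windows show what some of these genes have in common before their levels are compared. RefSeq windows on GRCm38.p6, from 250 bases before to 50 bases after the gene start, were found for 30 of the 33 genes. Cebpe, Wfdc21 and Hp had none. Ngp and Ltf are shown because both lie on chromosome 9 and were 2.88-fold and 3.08-fold higher in KO at 0 h. Capitals mark matches to the C/EBP motif TTGCNNAA, on either strand, with first bases at -138 and -11 from the start in Ngp (chr9:110419558-110419857, plus strand) and at -75 in Ltf (chr9:111019042-111019341, plus strand). Camp, on the same chromosome, had 0 matches to this motif and is not shown.

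Ngp: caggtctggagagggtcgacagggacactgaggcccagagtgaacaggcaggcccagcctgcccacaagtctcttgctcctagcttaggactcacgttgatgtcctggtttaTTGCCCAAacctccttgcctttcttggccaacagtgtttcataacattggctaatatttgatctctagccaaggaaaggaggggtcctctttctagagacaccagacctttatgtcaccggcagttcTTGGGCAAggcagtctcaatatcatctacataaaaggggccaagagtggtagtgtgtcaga

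Ltf: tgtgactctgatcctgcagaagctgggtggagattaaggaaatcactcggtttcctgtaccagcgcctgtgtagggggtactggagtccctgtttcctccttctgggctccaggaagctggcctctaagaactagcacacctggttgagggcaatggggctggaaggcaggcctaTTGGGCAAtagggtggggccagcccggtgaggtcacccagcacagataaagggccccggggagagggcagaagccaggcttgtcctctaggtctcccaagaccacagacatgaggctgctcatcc

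Elane and Prtn3 are shown as the adjoining primary granule genes with similar values in each library. Capitals mark the PU.1 motif GAGGAAG, at -85 in Elane (chr10:79886062-79886361, plus strand) and at -95 in Prtn3 (chr10:79879417-79879716, plus strand).

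Elane: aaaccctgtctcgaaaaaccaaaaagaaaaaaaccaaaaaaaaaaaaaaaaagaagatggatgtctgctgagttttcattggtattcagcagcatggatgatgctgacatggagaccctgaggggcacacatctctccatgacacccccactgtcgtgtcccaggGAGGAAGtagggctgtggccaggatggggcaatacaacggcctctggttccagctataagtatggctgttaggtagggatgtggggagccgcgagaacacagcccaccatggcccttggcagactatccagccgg

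Prtn3: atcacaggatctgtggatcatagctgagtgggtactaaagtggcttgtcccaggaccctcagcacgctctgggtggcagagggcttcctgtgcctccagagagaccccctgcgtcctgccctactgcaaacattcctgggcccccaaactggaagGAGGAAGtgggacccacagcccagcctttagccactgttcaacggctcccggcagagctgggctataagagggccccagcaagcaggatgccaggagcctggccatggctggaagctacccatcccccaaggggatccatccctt

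Chi3l1 is shown because it was the one secondary granule gene that passed the rule in KO at both times and after LPS in both genotypes. Capitals mark the NF-kappaB motif (GGGA, any 4 bases, then CC), at -179 (chr1:134181906-134182205, plus strand).

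Chi3l1: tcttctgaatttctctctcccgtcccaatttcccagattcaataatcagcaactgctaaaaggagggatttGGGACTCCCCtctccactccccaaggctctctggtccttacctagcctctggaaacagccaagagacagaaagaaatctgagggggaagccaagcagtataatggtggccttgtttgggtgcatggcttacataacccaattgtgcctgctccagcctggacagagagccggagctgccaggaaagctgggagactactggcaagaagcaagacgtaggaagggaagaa

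Across the list, the C/EBP motif was present in 11 of 30 windows (36.7%), against 10.8% of 32851 RefSeq windows of the same length. PU.1 matches were also in 11 of 30 (36.7%, against 13.6%), and NF-kappaB matches in 6 of 30 (20.0%, against 20.7%). The PU.1 motif was in 5 of 7 primary granule windows (Mpo, Elane, Prtn3, Ctsg and Bpi) and 4 of 9 secondary granule windows. Of the 14 genes that passed the rule in KO at 0 h, 7 held a C/EBP match (Ms4a3, Fcnb, Ltf, Ngp, Lcn2, Retnlg and S100a9), and of the other 16 windows 4 did (Adam8, Anxa1, Lyz1 and Slpi). Both strands were searched, matches of different motifs overlapped in 0 member windows, and a match is a description of letters and not a bound site.

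Levels among the members with a signal ran from 0.153 FPKM (Retnlg in KO at 3 h) to 23092 (Lyz2 in KO at 0 h). FPKM is scaled by transcript length, so levels of different genes can be set side by side, but only roughly. The deposited FPKM of many members lay above the middle of their own deposited intervals, and by unlike amounts. In WT at 0 h it was 2.06 times that middle for S100a8 and 1.78 times for Wfdc21, both very short transcripts. It was 1.24 times for Lyz2, 1.20 times for Ngp and 0.99 times for S100a9. Lyz2, the lysozyme of macrophages and granulocytes, was the highest gene of every library, at 21464 FPKM in WT and 23092 in KO at 0 h, and 16015 and 14415 at 3 h. S100a8, a calprotectin subunit, ranked 19 in WT and 7 in KO at 0 h among all symbols, and 14 in both at 3 h. Ngp, a neutrophil granule protein related to cathelicidin, ranked 157 and 41 at 0 h and 103 and 106 at 3 h. The primary granule genes were far lower: none was above 38.4 FPKM in any library. Bpi, a primary granule protein that binds endotoxin, was listed at 0 in all 4 libraries and has no fold. All 33 together made up 6.33% of the summed FPKM in WT and 7.93% in KO at 0 h, and 5.44% and 5.12% at 3 h. Without the lysozymes they made up 1.20% and 2.47% at 0 h, and 1.63% in both at 3 h.

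**Figure D1:**
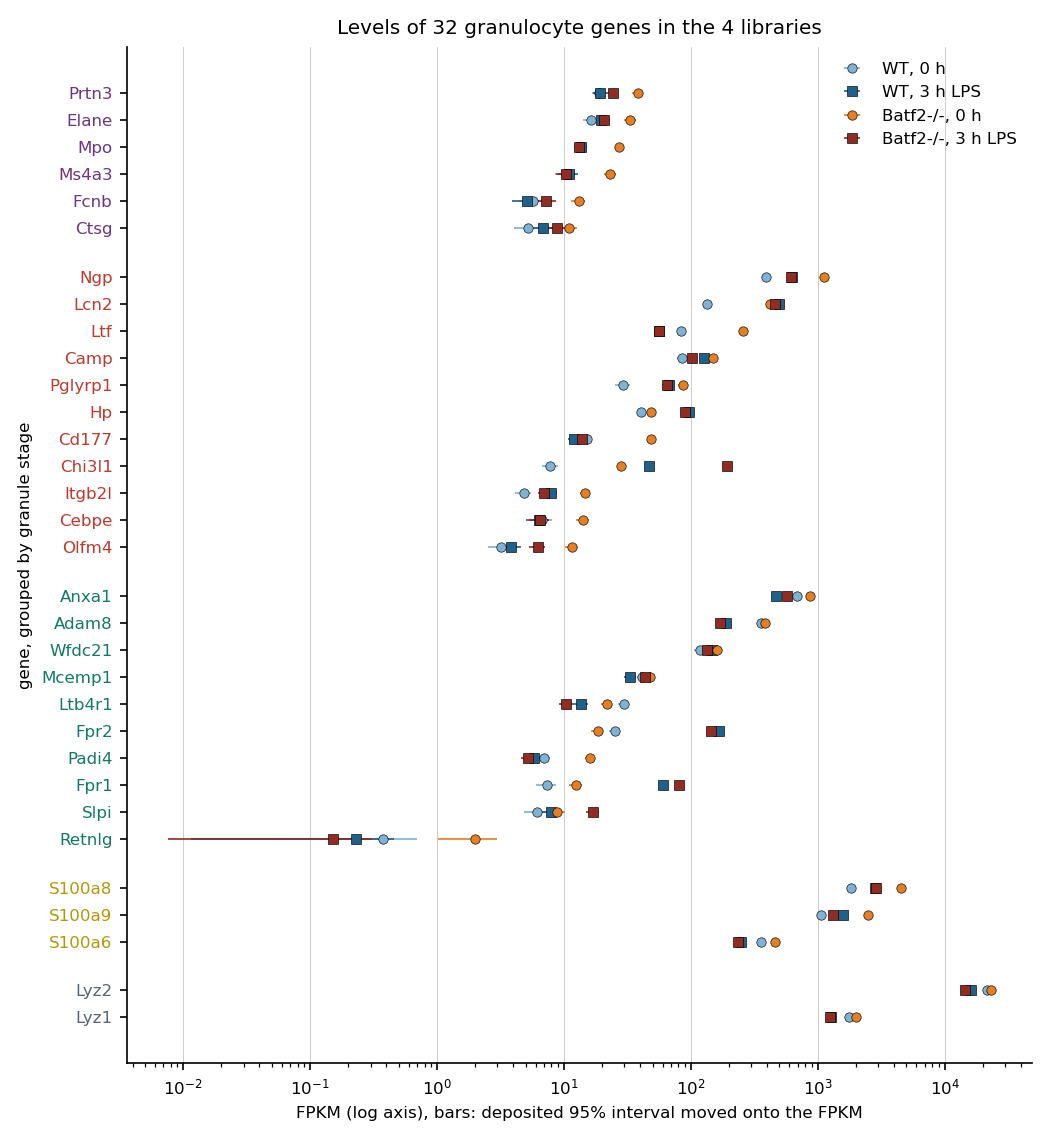
FPKM of the 32 members above 0 in each of the 4 libraries, on a log axis. Circles are 0 h, squares 3 h of LPS, blue WT and orange or red KO; bars are the deposited 95% intervals, centred on the plotted FPKM, gene names are coloured by stage (from the top: primary granule, secondary granule, later stage, S100 proteins, lysozymes), and the intervals of Retnlg in the 3 h libraries reach 0. The orange circles (KO at 0 h) lie to the right of the other 3 points for 25 of the 32 genes.

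The first comparison asks how the list differed between KO and WT before LPS. At 0 h, 30 of the 32 measured members were higher in KO and 14 passed the rule, all upward, against 1.32% of the 10844 genes tested that passed upward and 0.397% that passed downward. The median difference over the 32 was 0.97 log2 units, and over all genes tested -0.00. Secondary granule genes showed the largest differences, with 8 of 11 passing and a median fold of 3.03. Among the primary granule genes 2 of 6 passed, among the later genes 2 of 10, and among the S100 genes 2 of 3. Neither lysozyme passed.

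Primary granule genes lay close together, with folds between 2.02 and 2.27 for all 6 that were measured. Mpo, the peroxidase that makes hypochlorous acid, stood at 13.3 FPKM in WT and 27.0 in KO at 0 h, and at 13.8 and 13.2 at 3 h. KO at 0 h was thus the single high library, 2.03-fold (1.81 to 2.28) above WT at 0 h, while the other 3 had overlapping intervals. Elane, neutrophil elastase, stood at 16.5 and 33.3 FPKM in WT and KO at 0 h and at 19.7 and 20.6 at 3 h. Prtn3, proteinase 3, stood at 19.0 and 38.4 FPKM at 0 h and 19.4 and 24.4 at 3 h. Both serine proteases were 2.02-fold higher in KO at 0 h (1.69 to 2.41 for Elane, 1.73 to 2.36 for Prtn3). Ctsg, cathepsin G, stood at 5.23 and 10.9 FPKM at 0 h and 6.84 and 8.91 at 3 h.

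These 4 genes had differences of 0.94 to 0.98 and did not pass the rule, because 1 is added to each FPKM. With a pseudocount of 0.1 all 4 passed, and with a pseudocount of 5 none of the primary granule genes did, since Ms4a3 (0.87) and Fcnb (0.75) were then under the threshold too. Over all members, 9 in place of 14 passed with a pseudocount of 5. Ms4a3, a membrane protein of granulocyte and monocyte progenitors, passed with the pseudocount of 1, at 10.4 and 23.1 FPKM in WT and KO at 0 h (2.22-fold, 1.80 to 2.73). It stood at 11.0 and 10.5 FPKM at 3 h, with intervals that overlapped that of WT at 0 h on the deposited scale. Fcnb, the pattern-recognition lectin ficolin B, passed as well, at 5.76 and 13.1 FPKM (2.27-fold, 1.75 to 2.94). Its 3 h values were 5.16 in WT and 7.24 in KO.

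Among the secondary granule genes that passed, folds at 0 h ran from 2.88 (Ngp) to 3.64 (Chi3l1). Ltf, lactoferrin, which binds iron, stood at 83.2 FPKM in WT and 256 in KO at 0 h and at 56.7 and 56.5 at 3 h. It was 3.08-fold (2.95 to 3.21) higher in KO at 0 h and differed by less than its intervals at 3 h. Ngp stood at 391.9 and 1129 FPKM at 0 h (2.88-fold, 2.80 to 2.97) and 624 and 613 at 3 h. Lcn2, a lipocalin that binds bacterial siderophores, stood at 135 and 418 FPKM at 0 h (3.09-fold, 2.91 to 3.29) and 498 and 464 at 3 h. For Lcn2 the low library was WT at 0 h, and the other 3 lay between 418 and 498 FPKM.

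Cd177, a surface protein of neutrophils, stood at 15.2 and 48.8 FPKM in WT and KO at 0 h (3.21-fold, 2.93 to 3.53) and 12.02 and 13.8 at 3 h. Pglyrp1, which binds peptidoglycan, stood at 29.4 and 86.7 FPKM at 0 h (2.95-fold, 2.53 to 3.45) and 67.5 and 65.2 at 3 h. Itgb2l, an integrin subunit of maturing mouse neutrophils, stood at 4.82 and 14.6 FPKM at 0 h (3.03-fold, 2.57 to 3.58) and 7.90 and 6.99 at 3 h. On the deposited scale the intervals of KO at 0 h lay above those of every other library for these 3 genes. With the libraries rescaled by their median ratio, Pglyrp1 was instead highest in KO at 3 h, while Cd177 and Itgb2l stayed highest in KO at 0 h. Olfm4, a glycoprotein of a subset of neutrophils, was the lowest of the group, at 3.23 and 11.6 FPKM at 0 h (3.59-fold, 2.81 to 4.58) and 3.83 and 6.22 at 3 h. Chi3l1, a chitinase-like protein that the tables list under its other symbol Chil1, stood at 7.81 and 28.5 FPKM at 0 h (3.64-fold, 3.10 to 4.28).

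The 3 remaining members of this stage did not pass at 0 h. Cebpe, which encodes C/EBP-epsilon, stood at 6.78 and 14.1 FPKM (2.08-fold, 1.66 to 2.62, a difference of 0.96), and at 6.36 and 6.52 at 3 h. It therefore had the same single high library as Mpo on the deposited scale, and it also passed with a pseudocount of 0.1. Camp, the cathelicidin precursor, stood at 86.1 and 151 FPKM (1.75-fold, 1.55 to 1.97) and at 128 and 103 at 3 h. Hp, haptoglobin, which binds free haemoglobin, differed least, at 40.7 and 49.1 FPKM (1.20-fold, 1.09 to 1.33).

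**Figure D2:**
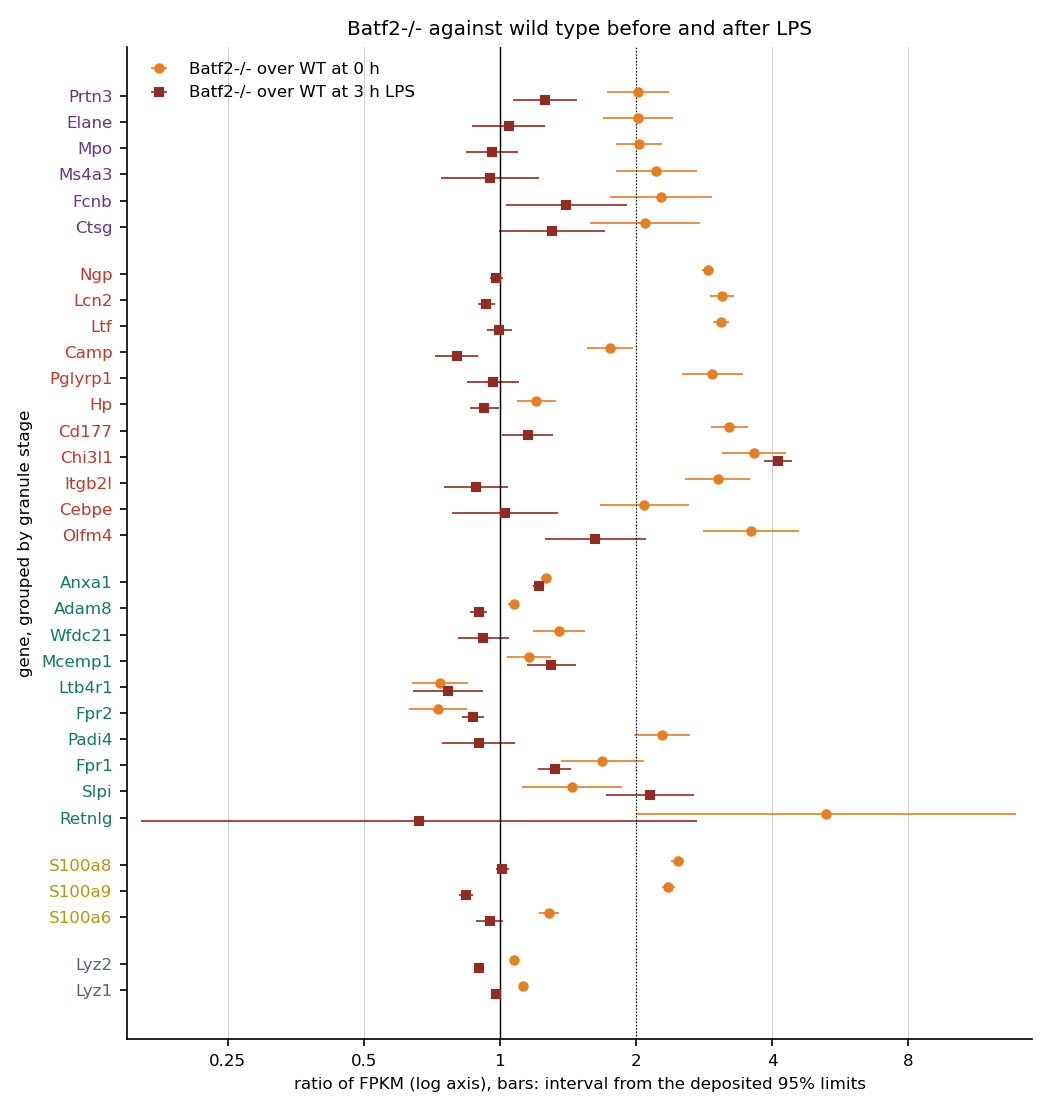
Ratio of FPKM in KO to WT for each member at 0 h (orange circles) and at 3 h of LPS (red squares), on a log axis, with intervals from the deposited 95% limits; the solid line marks equality, the dotted line 2-fold, and gene names are coloured by stage as in the plot of levels. At 0 h the secondary granule genes cluster near 3-fold and the primary granule genes near 2-fold, and at 3 h Chi3l1 and Slpi alone are above 2-fold.

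Later-stage genes were mixed. Padi4, which citrullinates histones, stood at 7.01 and 16.0 FPKM in WT and KO at 0 h (2.28-fold, 1.98 to 2.63) and 5.78 and 5.19 at 3 h. Retnlg, a resistin-like secreted protein of mature neutrophils, was the lowest member with any signal, at 0.379 and 2.00 FPKM at 0 h and 0.231 and 0.153 at 3 h. Its ratio at 0 h was 5.26, with an interval from 2.00 to 13.9 that shows how few reads it rests on. Only Padi4 and Retnlg passed among the 10 genes of this group.

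Fpr2 and Ltb4r1, receptors for formyl peptides and for a leukotriene attractant, went the other way at 0 h. Fpr2 stood at 25.3 FPKM in WT and 18.5 in KO (ratio 0.730, 0.630 to 0.846). Ltb4r1 stood at 29.7 FPKM in WT and 21.9 in KO (ratio 0.737, 0.639 to 0.849). Neither passed the rule, but the deposited intervals of WT and KO did not overlap for either. Fpr1, the neighbouring formyl peptide receptor, was higher in KO at 0 h, at 7.36 and 12.4 FPKM (1.68-fold, 1.36 to 2.08). Slpi, an inhibitor of elastase and cathepsin G, stood at 6.10 and 8.80 FPKM (1.44-fold), and Wfdc21, another member of the same domain family, at 119 and 161 (1.35-fold). The remaining 3, Anxa1 (1.26-fold), Mcemp1 (1.16-fold) and Adam8 (1.07-fold), differed less.

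S100a8 and S100a9, the calprotectin subunits, rose in KO at 0 h. S100a8 stood at 1838 FPKM in WT and 4545 in KO (2.47-fold, 2.39 to 2.55), and at 2833 and 2865 at 3 h. S100a9 stood at 1053 and 2481 FPKM at 0 h (2.36-fold, 2.28 to 2.43) and 1575 and 1324 at 3 h. S100a6 lies next to them on chromosome 3 but is made in many cell types, and it stood at 360 and 463 FPKM (1.28-fold). The lysozymes differed by 1.12-fold (Lyz1, 1769 and 1988 FPKM) and 1.08-fold (Lyz2). The coding sequences of Lyz1 and Lyz2 are identical at 422 of 444 bases, so reads could be split between them, and the values of each are uncertain.

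**Figure D3:**
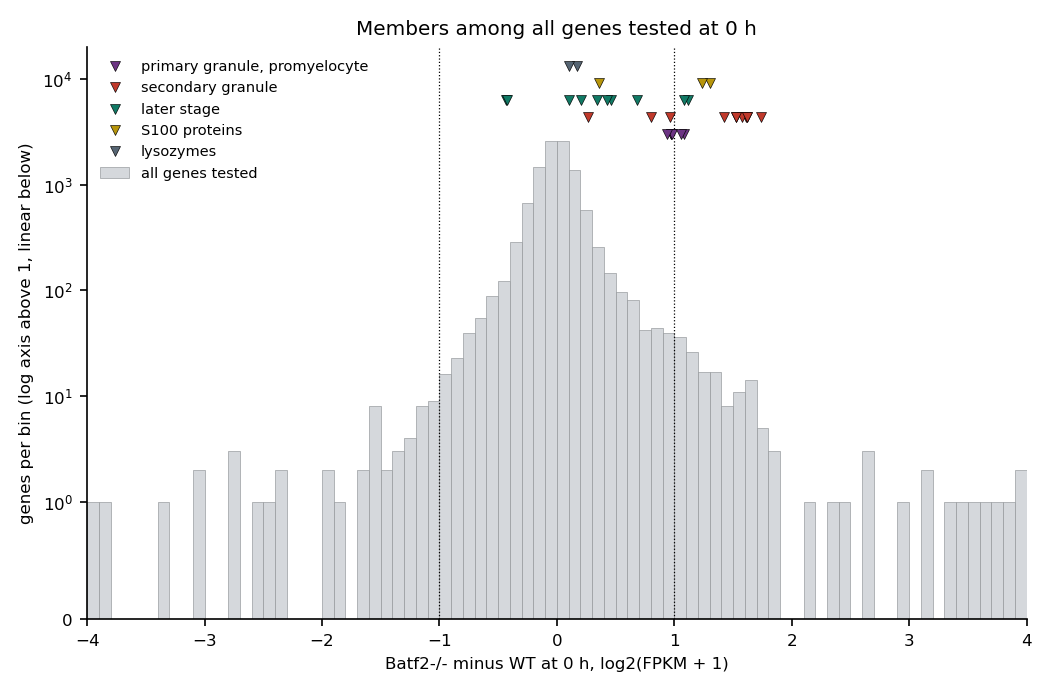
Histogram of KO minus WT at 0 h on the log2(FPKM + 1) scale for the genes tested (grey, bins of 0.1, y axis logarithmic above 1), with the 32 measured members as triangles coloured by stage at arbitrary heights. Dotted lines mark the 2-fold size threshold, and 25 genes beyond the axis limits of -4 and 4 are not drawn. The grey distribution is centred on 0, while 30 of the 32 triangles lie above 0.

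The second comparison asks whether the difference persisted after LPS. At 3 h, 2 of 31 measured members rose in KO, Chi3l1 and Slpi, and 0 fell, against 0.734% of 9806 genes tested that passed upward and 0.714% downward. The median difference over the members was -0.03, and over all genes tested -0.07. Chi3l1 stood at 47.3 FPKM in WT and 195 in KO at 3 h, 4.12-fold (3.83 to 4.43) higher. Slpi stood at 7.91 and 17.0 FPKM, 2.15-fold (1.72 to 2.68) higher.

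Among the other 29 members measured at 3 h, ratios of KO to WT ran from 0.768 (Ltb4r1, 0.644 to 0.916) to 1.62 (Olfm4, 1.26 to 2.10). Of the secondary granule genes, Olfm4 was the other member, beside Chi3l1, whose intervals lay apart with KO higher. Lcn2 (ratio 0.932) and Camp (0.803) had intervals apart with KO lower. None of the primary granule genes had intervals apart at 3 h, with ratios from 0.953 (Ms4a3) to 1.40 (Fcnb). Fpr1 (1.32), Mcemp1 (1.30) and Anxa1 (1.22) were higher in KO with intervals apart, and Ltb4r1, Fpr2 (0.872), Adam8 (0.897), S100a9 (0.840) and Lyz2 (0.900) were lower with intervals apart. No member of this group of 29 passed the rule. Retnlg was below the FPKM minimum in both 3 h libraries and was not counted. Rescaling the libraries by the median ratio turned the members' median to 0.04 and left 12 members below 0 in place of 18, since most 3 h differences were near 0.

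After LPS in WT, 6 of 31 members rose and 1 fell, against 7.55% and 23.2% of 10843 genes tested. The median over the members was 0.19 and over all genes tested -0.54. The formyl peptide receptors rose most: Fpr1 went from 7.36 to 60.9 FPKM (8.28-fold, 6.86 to 9.99) and Fpr2 from 25.3 to 167 (6.60-fold, 5.90 to 7.38). Chi3l1 (6.05-fold), Lcn2 (3.69-fold), Hp (2.40-fold) and Pglyrp1 (2.30-fold) rose as well. Ltb4r1 fell, from 29.7 to 13.7 FPKM (ratio 0.461, 0.390 to 0.544).

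In KO, 3 of 32 members rose with LPS and 7 fell, against 7.86% and 28.0% of 10961 genes tested. The median over the members was -0.68, close to -0.64 over all genes tested. Fpr2 (18.5 to 145 FPKM, 7.88-fold), Chi3l1 (28.5 to 195, 6.84-fold) and Fpr1 (12.4 to 80.4, 6.49-fold) rose. Retnlg, Ltf, Cd177, Padi4, Adam8, Cebpe and Ms4a3 fell. Ltf went from 256 to 56.5 FPKM (ratio 0.221, 0.211 to 0.231) and Cd177 from 48.8 to 13.8 (ratio 0.284, 0.259 to 0.311). Adam8, a surface metalloprotease, stood at 356 and 189 FPKM in WT at 0 and 3 h and at 382 and 169 in KO, so its values went down in both genotypes.

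All changes after LPS depend on the scale. Rescaling the libraries by the median ratio of 5605 genes adds 0.37 to every log2 difference in WT and 0.47 in KO before the pseudocount, and changes the all-gene split in WT from 819 higher and 2516 lower to 1105 and 1400, and in KO from 861 and 3065 to 1214 and 1490. In KO, the members that passed then became 5 upward and 4 downward, since Ms4a3, Cebpe and Adam8 no longer passed and Hp and Slpi did. In WT, Ltb4r1 no longer passed and Ngp rose. Rescaled, values below 0 turned above 0 for Ctsg, Mcemp1, Pglyrp1 and Wfdc21 in KO and for Cd177, Cebpe, Fcnb, Mcemp1 and Padi4 in WT.

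**Figure D4:**
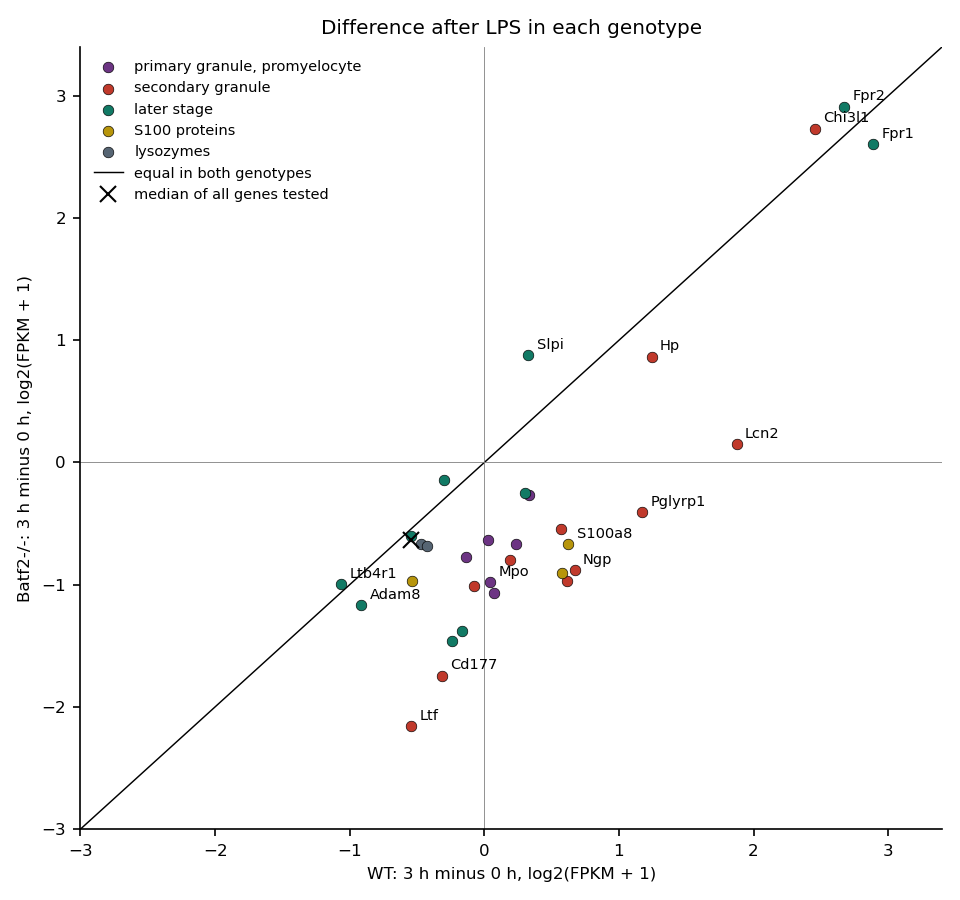
Difference between 3 h and 0 h on the log2(FPKM + 1) scale in WT (x axis) and KO (y axis) for the 32 members above 0, coloured by stage. The diagonal marks equal differences, and the cross marks the medians of all genes tested (-0.54 in WT and -0.64 in KO). Fpr1, Fpr2 and Chi3l1 lie near the diagonal at the upper right, and most secondary granule genes lie below it, with Lcn2, Hp and Pglyrp1 farthest to the right among those and Ltf lowest.

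The difference between the LPS responses (KO minus WT) was below 0 for 27 of 32 members. It passed the size rule downward for 13 and upward for 0, against 1.5% and 0.953% of 11126 genes, with a median of -0.78 over the members and -0.08 over all genes tested. The 13 were Mpo and Ms4a3 of the primary stage, Ltf, Ngp, Lcn2, Camp, Cd177, Itgb2l and Pglyrp1 of the secondary stage, Retnlg and Padi4 of the later stage, and S100a8 and S100a9. Values ran from -1.72 (-1.83 to -1.62) for Lcn2 to -1.02 (-1.26 to -0.79) for Mpo. After rescaling, 26 members were below 0, and Mpo (-0.93) no longer passed. Lcn2 rose by 1.87 in WT and stood 0.15 higher in KO. Pglyrp1 rose by 1.17 in WT and stood at -0.41 in KO. Fpr2, Chi3l1 and Ltb4r1 had differences between responses of 0.24, 0.28 and 0.07, and Slpi had the highest value, 0.55. This comparison equals the 3 h difference between KO and WT minus the 0 h difference, so it uses both 0 h libraries again. Most members differed little at 3 h, and for these it largely restates the 0 h comparison with its sign turned. For Ltf the 0 h difference was 1.61, the 3 h difference -0.004 and the difference between responses -1.615. The 2 comparisons are therefore not independent of each other, and the 13 members are not a separate result.

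Library by library, KO at 0 h held the highest value for 25 of 32 members, against 39.0% of 11126 genes. It passed the rule over each of the other 3 libraries for 5 members, Ms4a3, Ltf, Cd177, Retnlg and Padi4, against 0.377% of genes. After rescaling, 20 of 32 members were highest in that library, against 26.9% of genes, and 3 (Ltf, Cd177 and Retnlg) passed over each other library, against 0.189%. The one member with this pattern in another library on the deposited scale was Chi3l1, in KO at 3 h, against 0.306% of genes. This count was added after the values had been seen. All of it rests on 1 library, and a difference of that culture from the others and an effect of the genotype cannot be told apart.

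Other neutrophil genes outside the list were examined in the same way, from a separate list of 31, of which 29 were measured. That list too was chosen with earlier results of these data known. At 0 h, 10 of 29 rose in KO and 0 fell, against 1.32% and 0.397% of all genes tested, with a median of 0.47. They were the gelatinase Mmp9 (6.06 and 13.7 FPKM, 2.26-fold), the stefin protease inhibitors Stfa1, Stfa2, Stfa2l1, Stfa3 and Gm5483 (2.59-fold to 3.42-fold), Ifitm6 (3.42-fold), Chil3 (2.44-fold), Lrg1 (2.33-fold) and Asprv1 (4.33-fold, 2.62 to 7.17). The stefin genes are a family of near copies, so reads may be shared among them and each value is uncertain. Csf3r, the receptor of the granulocyte growth factor G-CSF, stood at 3.08 and 4.34 FPKM in WT and KO at 0 h, and Cxcr2, the chemokine receptor of mature neutrophils, at 2.47 and 3.79, and neither passed. At 3 h, 2 of 29 rose in KO (Mmp8 and Trem1) and 0 fell, against 0.734% and 0.714%.

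Among 17 regulators of granulocyte formation, 14 were measured at 0 h, with a median of 0.07. Of these 0 passed in either direction, against 1.32% upward and 0.397% downward of all genes tested. Gfi1, a repressor needed for neutrophil formation, stood at 1.06 and 1.77 FPKM at 0 h and 13.2 and 15.1 at 3 h. Cebpb (213 and 220 FPKM) and Cebpd (15.7 and 16.7), relatives of C/EBP-epsilon, were alike in WT and KO at 0 h. At 3 h, Csf3, which encodes G-CSF, stood at 2.01 FPKM in WT and 6.11 in KO (3.04-fold). Csf3 and Gata2 (6.63-fold) passed upward among 15 measured, against 0.734% of all genes tested, and 0 passed downward, against 0.714%. Cebpa had an entry whose status was not OK and was not compared. Ly6g and BC100530, of the separate list of neutrophil genes, were looked for and not found among the entries.

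Markers of other cell types also differed between the 0 h libraries. Over all genes tested at 0 h, 1.32% passed the rule upward in KO and 0.397% downward. The summed FPKM of 8 stromal markers was 33.7 in WT and 75.9 in KO at 0 h, and 34.7 and 54.7 at 3 h. All 6 measured at 0 h were higher in KO with intervals apart, with a median fold of 2.87. Of these, 5 were at 2-fold or more and 2 passed the rule (Col3a1 and Sparc). Lum was between 0.017 and 0.050 FPKM in all 4 libraries. Of 8 lymphoid, erythroid and platelet markers 3 were measured at 0 h and 0 passed. Their sums were 13.0 and 24.1 at 0 h and 13.3 and 25.04 at 3 h, most of it from the platelet gene Ppbp (10.4 and 20.4 FPKM at 0 h), and the other 7 summed to 2.52 and 3.75 at 0 h. The sum of 12 dendritic cell markers, with Cd74 and other class II genes, was 14214 in WT and 8621 in KO at 0 h. At 3 h it was 14788 and 16397. Of 10 measured at 0 h, 9 were lower in KO, 8 with intervals apart, and 2 fell (Cd209a and Ccl22). The difference between LPS responses passed upward for 3 of 11 (Ccl22, H2-Aa and H2-Ab1), against 0.953% of genes, and downward for 0. Of 14 macrophage markers 7 were higher in KO at 0 h and 7 lower, 4 and 5 of them with intervals apart. Their median fold was 0.989, 1 rose (Apoe), and their sums were 6271 and 6926. Of 14 cell cycle genes 12 were lower in KO at 0 h, 6 with intervals apart, and 2 were higher, 1 with intervals apart. Of these genes 0 passed, with sums of 457 and 414. Of 10 mast cell, basophil and eosinophil markers 7 were measured at 0 h, and 6 of them were higher in KO, 5 with intervals apart, with a median fold of 1.58 over the 7. The rule was passed by 1 (Hdc, which neutrophils also express). Their sums were 54.1 and 61.3, and without Siglecf, which was lower in KO (22.5 and 12.8 FPKM), 31.6 and 48.6. Epx and Prg2, eosinophil granule genes, passed the difference between LPS responses downward, like the 13 members, at -1.77 and -1.53. They were 2 of 7 measured, against 1.5% of genes that passed downward. The part of these cell types in the values of the granule genes was not tested.

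Several members lie close together in the genome. Coordinates are the loci of the deposited tables, and distances are between their left ends. Prtn3 (chr10:79879667-79883172) and Elane (chr10:79886312-79888216) lie 6.64 kb apart, and Lyz2 and Lyz1 lie 10.3 kb apart on the same chromosome. S100a8 (chr3:90669071-90670034) and S100a9 (chr3:90692630-90695721) lie 23.6 kb apart, and Fpr1 and Fpr2 lie 11.4 kb apart on chromosome 17. Neighbours did not always have the same direction: at 0 h Fpr1 was higher and Fpr2 lower in KO. Camp, Ngp and Ltf lie within 1.2 Mb on chromosome 9 and differed by 1.75-fold, 2.88-fold and 3.08-fold at 0 h. In coding sequence Elane and Prtn3 shared 65.9% of aligned bases, Fpr1 and Fpr2 70.4%, S100a8 and S100a9 60.7%, and Camp and Ngp 55.2%. Slpi (393 bases) and Wfdc21 (189 bases) shared 66.7% of 189 aligned bases, with 204 gap positions left out. All these pairs were further apart than the lysozymes.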

How the data were processed

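Tables of FPKM by RefSeq accession were used for 4 RNA-seq libraries. The deposited FPKM come with an interval and a status per entry; per the submitters' processing notes, TopHat2, Bowtie and SAMtools aligned the reads and Cufflinks computed the values, with versions not given in the sources used here. Libraries were strand-specific and single-read, per the labels. The notes name mm9, but all 35 entries of the members overlap their GRCm38 genes; 27 lie inside them and 8 extend beyond by up to 357 bases. Coordinates are therefore given as GRCm38.

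Entries were named through RefSeq and GENCODE tables, and FPKM was summed per symbol (24116 symbols or unnamed accessions). A sum was left out in a library where an entry was not OK, which held for 272 genes in any library. S100a9 and Adam8 had 2 entries each. FPKM can lie outside its deposited interval, so each interval was centred on its FPKM, keeping its relative width. Differences used log2(FPKM + 1) of the values as deposited. Because groups are single libraries, no test, standard error or p-value was computed. The size rule, stated in the results, was tested on simulated data with counting error only, which says nothing of the spread between cultures. The difference between LPS responses had to be 1 or more in size, with a propagated interval on one side of 0. Depth was estimated from 73 to 86 entries per library whose interval marks a single read. Coding sequences came from GENCODE, with nucleotide identity in place of the planned protein identity, for which no protein table was used here. Named genes outside the 33 were those of fixed lists passing the rule in a comparison, up to 12 per list, and a few set key genes. Ppbp, Siglecf and Lum were named outside this rule and were chosen by their values. The members and all lists were chosen with earlier results of these data known. Alternatives were other pseudocounts, filters, a 1.5-fold threshold, the highest entry alone and rescaled libraries. Python 3.11.15, pandas 2.3.3, numpy 2.4.6, Biopython 1.88 and matplotlib 3.10.9 were used.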

Additional observations from a re-analysis of the deposited data

Results flagged for a closer look

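For 7 members the value after LPS was higher in WT and lower in KO, with deposited intervals apart in both genotypes. The differences between responses (KO minus WT, log2 units) were -1.55 for Ngp, -1.11 for Camp, -1.58 for Itgb2l, -1.58 for Pglyrp1, -0.55 for Wfdc21, -1.29 for S100a8 and -1.49 for S100a9. The difference was not tested, since each group is 1 library. After rescaling, Pglyrp1 and Wfdc21 were above 0 in KO as well, at 0.06 and 0.22, and Camp was at -0.08. At 3 h the KO and WT values of all 7 differed by at most 1.24-fold (Camp), and at 0 h KO was between 1.35-fold (Wfdc21) and 3.03-fold (Itgb2l) above WT.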

How the results depend on the processing

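Of the results for single members, 1038 stayed on the same side of the rule under the alternatives, 46 came to pass, 22 no longer passed, and 0 called values changed sign. With a pseudocount of 5, members higher in KO at 0 h numbered 9 in place of 14 and at 3 h 1 in place of 2, members lower after LPS in WT 0 in place of 1, and in KO 4 in place of 7. With the libraries rescaled, the members' median of KO minus WT at 3 h was 0.042 in place of -0.03, members lower after LPS in WT numbered 0 in place of 1, and in KO 5 were higher in place of 3 and 4 lower in place of 7. Members passing in KO at 0 h over each other library were 3 in place of 5. With a 1.5-fold threshold, members lower after LPS in WT numbered 2, and in KO 5 were higher and 21 lower. All genes passing downward after LPS numbered 1400 in place of 2516 in WT and 1490 in place of 3065 in KO after rescaling. The members passing upward at 0 h ranged from 9 to 21 over the alternatives, and the median from 0.76 to 1.03.

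No paired analysis was possible because each group holds 1 library and no fit was made. Replicates could not be left out for the same reason. The deposited intervals cover counting error only, so the spread between cultures is unknown. Depth limits Retnlg most, whose intervals reach 0 in both 3 h libraries.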
